A study of Mus musculus with 22 samples.

Results

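The genes described here encode the proteins of the mitochondrial ribosome. They were taken as every protein-coding row of the deposited table whose symbol begins with Mrpl or Mrps followed by a number, which gave 76 of 17440 genes, 48 named Mrpl (large subunit) and 28 named Mrps (small subunit). Mrps10 and Mrpl53 had no row in the table and were not analysed here. The measurements came from phosphoTRAP of the mouse arcuate nucleus with the median eminence. In this assay, ribosomes are pulled down (IP) through their S6 protein when it carries phosphate on serines 244 and 247, a mark that rises in active neurons, and the bound RNA is sequenced beside an input taken from the same homogenate. MCH-hM3Dq mice (4 mice, numbered 1, 3, 4 and 5) were compared with control mice (7 mice), and each mouse gave 1 IP and 1 input library, 22 in all. All groups shared the C57BL/6N background, an age of 10 to 13 weeks, a 12 h fast and an injection of CNO (clozapine N-oxide, the ligand of the receptor hM3Dq) 1 h before collection, so the control mice had also received CNO. The label names MCH, melanin-concentrating hormone, beside the receptor. How its expression was driven and what allele the control mice carried are not given in the sources used here, and 4 of the 5 hM3Dq mice that the design text lists were analysed here.

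The mitochondrial ribosome translates the few proteins encoded by mitochondrial DNA, all of them subunits of the oxidative phosphorylation complexes. Its RNA comes from the mitochondrial genome, whereas all of its proteins are encoded in the nucleus, translated on cytosolic ribosomes and imported. Many of these proteins have counterparts in bacterial ribosomes, and others are found only in mitochondria. The assay captures cytosolic ribosomes, so the values below describe messenger RNA that codes for mitochondrial ribosomal proteins and say nothing of the mitochondrial ribosomes themselves.

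Symbol and position in the ribosome do not always match. Mrps30 and Mrps18a carry small subunit names although their mammalian proteins sit in the large subunit, and Mrps36 encodes a protein now known as a part of the 2-oxoglutarate dehydrogenase complex. Mrps36 was kept as a member by its symbol and put in no role group. The role lists put Mrps18a and Mrps18b among proteins specific to mitochondria, although with Mrps18c they are counterparts of the same bacterial protein. By role, 30 members were large subunit proteins with bacterial counterparts, 20 were large subunit proteins specific to mitochondria, 15 were small subunit proteins with bacterial counterparts and 10 were small subunit proteins specific to mitochondria.

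The 76 genes lie on 17 chromosomes. Their longest annotated transcripts had a median length of 1866.5 bases (488 for Mrps21 to 7300), against 3189 bases over the genes tested. Exons of 29 members overlap those of another gene by at least 50 bases in GENCODE, 7 of them on the same strand and 23 on the opposite strand. Whether the libraries kept strand is not given in the sources used here, so reads of such pairs could not be told apart. Mrpl46 and Mrps11, both members, overlap each other on opposite strands. The pairs also include Mrps24 with Urgcp and Mrps34 with Nme3 on the same strand. The table also held 4 processed pseudogenes of members, among them Mrpl23-ps1 (median 2.29 FPKM, 0.992 to 4.70) and Mrpl48-ps (median 2.97 FPKM, 1.29 to 5.31).

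Promoters were read from RefSeq (GRCm38.p6), which held a window for 67 of the 76 members. The letters searched on both strands, within 250 bases before the annotated start, were GCGC, then A, any base and GCGC again (a core of sites for NRF1, a transcription factor of nuclear genes for mitochondrial proteins), CCGGAAG (the core bound by ETS family factors such as GABPA) and AAGATGGC (a core of YY1 sites). The NRF1 letters were in 13.7% of the members' 73 windows, in 1.52% of those of cytosolic ribosomal proteins, in 7.67% of those of protein-coding genes with 1 FPKM or more in at least 4 libraries and in 3.74% of all windows. For the ETS letters these shares were 23.3%, 24.2%, 12.5% and 6.91%. For the YY1 letters they were 5.48%, 4.55%, 1.81% and 1.56%. A total of 38 of the 67 members held none of the 3. The NRF1 letters were in 9 of 47 windows of Mrpl genes and 1 of 26 windows of Mrps genes.

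The 5 stretches below are the last 100 bases before the annotated start of 5 members named in the results. They are printed 5′ to 3′ on the gene's strand, with NRF1 or ETS letters in capitals. Mrpl30, the member with the highest level, and Mrps21 hold the NRF1 letters. Mrpl52 holds the ETS letters, and Mrps17 and Mrpl41 hold none of the 3 motifs. Among members not shown, Mrpl23, Mrps15, Mrps14, Mrps23, Mrps18b and Mrps30 hold none of the 3 within 250 bases. Mrpl32, Mrpl36 and Mrps18c, also not shown, hold at least 1 of them there.
Mrpl30, chr1:37890377-37890476, plus strand: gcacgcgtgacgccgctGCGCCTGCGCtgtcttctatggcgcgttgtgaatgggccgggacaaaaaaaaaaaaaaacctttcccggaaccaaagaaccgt
Mrps21, chr3:95871515-95871614, minus strand: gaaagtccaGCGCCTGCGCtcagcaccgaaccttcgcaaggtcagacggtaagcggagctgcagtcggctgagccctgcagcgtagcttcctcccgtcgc
Mrpl52, chr14:54426809-54426908, plus strand: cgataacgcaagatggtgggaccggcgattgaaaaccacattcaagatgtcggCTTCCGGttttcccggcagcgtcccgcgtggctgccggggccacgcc
Mrps17, chr5:129715397-129715496, plus strand: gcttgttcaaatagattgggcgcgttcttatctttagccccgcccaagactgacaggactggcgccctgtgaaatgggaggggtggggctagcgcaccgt
Mrpl41, chr2:24975099-24975198, minus strand: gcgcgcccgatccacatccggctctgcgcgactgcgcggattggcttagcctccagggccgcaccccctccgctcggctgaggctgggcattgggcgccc

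Cytosolic ribosomal protein messages are known for a run of pyrimidines at their first base, through which their translation follows growth signals. The search was for a run of at least 5 C or T that begins with C within 5 bases of the annotated start. It was found in 23.3% of the members' windows, 42.4% of those of cytosolic ribosomal proteins and 18.3% of all windows. Protein-coding genes with 1 FPKM or more in at least 4 libraries held it in 19.5% of their windows. The 30 bases around the start, with the run in capitals, are shown for 1 member and 2 cytosolic ribosomal proteins that hold it. In Mrpl52 the run overlaps letters that continue as an ETS core.
Mrpl52, chr14:54426894-54426923, plus strand: tgccggggccacgcccaCTTCCggttccct
Rpl13a, chr7:45128731-45128760, minus strand: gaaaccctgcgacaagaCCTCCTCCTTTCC
Rps27, chr3:90213634-90213663, minus strand: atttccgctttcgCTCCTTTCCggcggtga

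Levels are given as the authors' normalized FPKM, which scales fragments to the length of the transcript and the size of the library. The column sums of the 22 libraries ran from 385106 to 486871 FPKM and 280 to 1895 genes were listed at 0 per library. The number of reads is unknown, and steps among low values placed the libraries' relative depth between 0.685 and 1.26. Control mice 1, 5 and 6 stood apart, since the inputs of mice 1 and 6 (1895 and 1579) and the IP of mouse 5 (1515) had the most zeros. Neuronal markers were present in every library (Snap25 at 3632 FPKM or more, Rbfox3 at 35.4 or more). Of the arcuate peptides, Agrp was at 5.77 FPKM or more and Pomc at 0.996 or more, while Kiss1 had no row in the table, and the endothelial marker Cldn5 stayed under 1 with zeros in both fractions.

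The median mitochondrial ribosomal protein message lay above the median gene tested in every library. On the log2(FPKM + 1) scale the input medians ran from 4.57 to 5.00 over the tested members and from 3.02 to 3.17 over all genes tested. Of the 76 members, 75 had an FPKM of 1 or more in all 22 libraries. Over the members, the median of the input medians was 26.3 FPKM (quartiles 16.8 and 37.0) and that of the IP medians was 26.9 FPKM (quartiles 17.6 and 37.9). Their summed FPKM made up 0.473% to 0.682% of a library. These are bulk samples, in which fewer cells of a type and less RNA per cell cannot be told apart.

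The members' order was nearly the same in both fractions. Over the 75 members above 1 FPKM, log2 levels in IP and input correlated with a Pearson r of 0.95 (Spearman rho 0.94), a description across genes that share the same libraries. Between roles the input medians lay close together, at 26.0 FPKM for large subunit proteins with bacterial counterparts, 32.1 for those specific to mitochondria, 26.6 for small subunit proteins with bacterial counterparts and 24.3 for those specific to mitochondria. Most of these proteins are present once in each ribosome, and their messages spanned a 33.3-fold range from Mrpl30 to the second lowest member. A typical member varied between the 11 inputs with a coefficient of variation of 28.7%.

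Mrpl30, a large subunit protein with a bacterial counterpart, had the highest level. Its input values in the control mice ran from 103 to 256 FPKM with a median of 197.5, and the hM3Dq inputs were 268, 224, 204 and 180 FPKM in mice 1, 3, 4 and 5. Its lowest input was that of control mouse 1. Its input median over all mice was 2.63 times that of Mrps14, which came next at 77.5 FPKM. Every Mrpl30 value lay above every Mrps14 value in the same kind of library.

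Mrps14, a protein of the small subunit, had 46.5, 77.5 and 96.0 FPKM as the lowest, median and highest control inputs, and hM3Dq inputs of 77.6, 66.9, 67.4 and 98.8 in mice 1, 3, 4 and 5. Its IPs lay between 45.7 and 106 FPKM, over the same range as its inputs. Mrps21 (65.2 FPKM), Mrps34 (63.9) and Mrps18c (62.3) followed, and their ranges over mice overlapped that of Mrps14, so the order among them did not exceed their spread. At the low end, Mrps30 had an input median of 6.64 FPKM and Mrps18b one of 6.14 FPKM. Mrps18b had 1.26, 4.85 and 13.6 FPKM as the lowest, median and highest control inputs and 7.43, 11.3, 9.85 and 3.27 in the hM3Dq inputs. Mrps30 had 3.43, 6.64 and 9.26 in the control and 6.15, 5.38, 6.69 and 7.08 in the hM3Dq inputs, so the ranges of the 2 genes overlapped. The plot of levels shows these steps at both ends and an even slope between them.

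**Figure D1:**
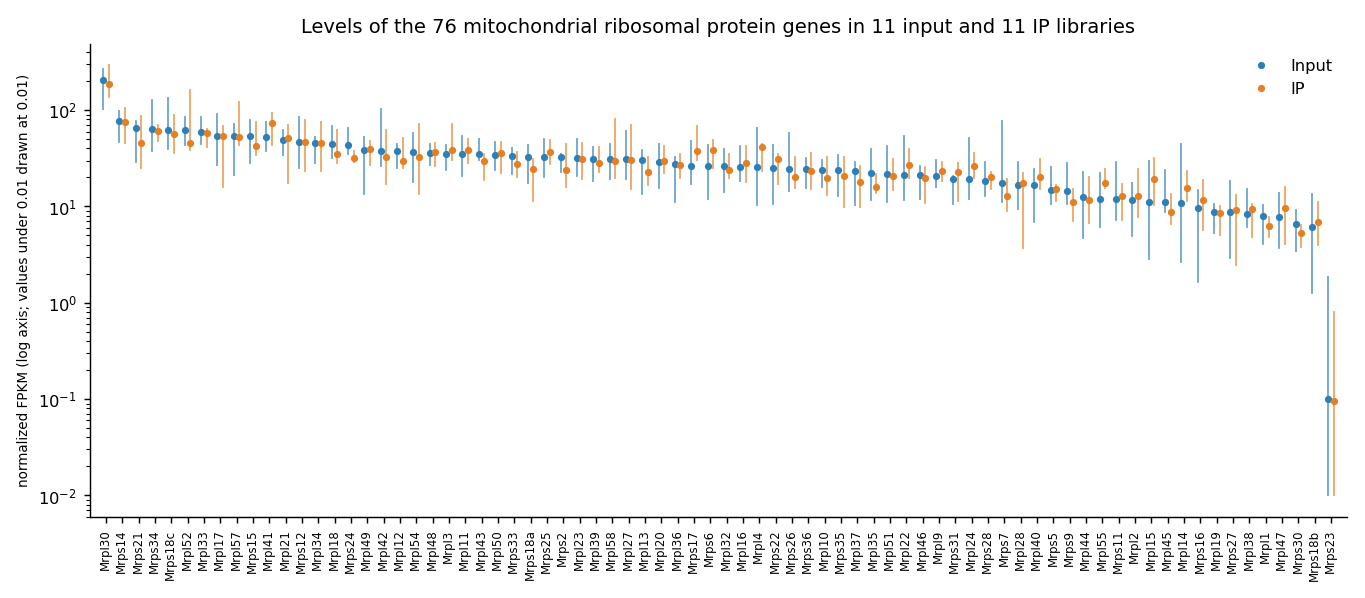
Normalized FPKM of the 76 members (log axis), ordered by input median, with a point at the median and a line from the lowest to the highest of 11 libraries, for input and for IP. Mrpl30 stands above all other members at 204.2 FPKM, and Mrps23 stands below 2 FPKM in all libraries.

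Mrps23, a small subunit protein specific to mitochondria, was the exception. It was listed at 0 in 3 libraries, the inputs of control mice 1 and 3 and the IP of hM3Dq mouse 4. Its highest values were 1.85 FPKM in the input of hM3Dq mouse 3 and 1.50 FPKM in the input of control mouse 7, and its median was 0.10 FPKM in the inputs and 0.0945 in the IPs. It did not reach the filter (1 FPKM in at least 4 of the libraries compared) and was not tested, so that 75 members were tested in every comparison below.

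The comparison of IP with input asks which messages are over- or under-represented on ribosomes carrying phosphorylated S6. In the control mice the mitochondrial ribosomal protein messages were about as abundant in IP as in input. Of 75 members, 1 rose (Mrps17) and 0 fell by limma's moderated test (Benjamini-Hochberg adjusted p under 0.05 over all genes), which is 1.33% of them. Over all 13999 genes tested, 4.84% were called, 2.23% higher and 2.61% lower. An unadjusted p under 0.05 was reached by 10 of the 75 (13.3%), against 19.5% of all genes. The members' median log2 change was -0.01, beside 0.03 over all genes, with a range of -0.67 to 0.77, and 65 of 75 lay within 0.5 of 0. Quantile normalization and median centring turned the sign of this median (0.02 in each case), and equal library sums gave 0.16 beside 0.17 over all genes.

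Mrps17, whose bacterial counterpart binds the RNA of the small subunit early in assembly, rose in the IP of the control mice. Its inputs had 17.3, 23.5 and 29.4 FPKM as the lowest, median and highest values, and its IPs had 32.1, 37.4 and 68.0. The IP was higher in 7 of 7 mice and the groups did not overlap. The share of all genes whose IP and input values did not overlap was not counted. The change was 0.77 on the log2 scale (SE 0.15, n = 7 mice, limma adjusted p = 0.0124). Without control mouse 2 the adjusted p was 0.0506, and without control mice 1, 5 and 6 it was 0.0604. The hM3Dq inputs were 47.6, 21.5, 29.2 and 30.3 FPKM and the IPs 40.7, 37.6, 43.8 and 30.1 in mice 1, 3, 4 and 5, with IP higher in 2 of 4.

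The most negative values in the control mice were those of Mrps7, Mrps9, Mrpl35 and Mrps24, and none of them passed. Mrps9, a small subunit protein whose bacterial counterpart reaches the transfer RNA, had 10.6, 16.1 and 28.3 FPKM as the lowest, median and highest inputs and 7.05, 10.4 and 14.1 in the IPs. The IP was lower in 7 of 7 control mice, though the groups overlapped. The log2 difference was -0.66 (SE 0.19) with a limma adjusted p of 0.0741, which did not pass. Its hM3Dq inputs were 16.0, 13.0, 13.3 and 14.3 FPKM and the IPs 15.3, 11.9, 11.7 and 12.6, with a log2 difference of -0.13. Mrps9 was the only member with the IP lower in all 11 mice, and no member had it higher in all 11. The shares of all genes with such a pattern over the 11 mice were not counted.

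Members of both subunits lay low in the control IPs without passing. Mrps7, a protein of the small subunit head, had a log2 difference of -0.67 (adjusted p = 0.122 by limma), and its input in control mouse 1 was 76.3 FPKM while the others lay between 11.2 and 18.4. Mrps24, which shares exon sequence with Urgcp, had -0.52 (adjusted p = 0.0777 by limma) with the IP lower in all control mice but mouse 1. The large subunit proteins Mrpl35 and Mrpl28 had -0.55 (adjusted p = 0.13 by limma) and -0.43 (adjusted p = 0.501 by limma), and Mrps15 had -0.37 (adjusted p = 0.163 by limma). Mrps6, of the same role as Mrps15, had 0.53 in the other direction (adjusted p = 0.255 by limma). Among the 15 small subunit proteins with bacterial counterparts 6 (40%) had an unadjusted p under 0.05 by limma, against 19.5% of all genes. These 6 went in both directions, and the median over the 15 was -0.16. The other 3 roles had medians of 0.06 (large subunit, bacterial counterparts), -0.02 (large subunit, specific to mitochondria) and -0.05 (small subunit, specific to mitochondria), with 0 calls. In the same order, 3 of 30, 1 of 20 and 0 of 9 had an unadjusted p under 0.05 by limma.

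**Figure D2:**
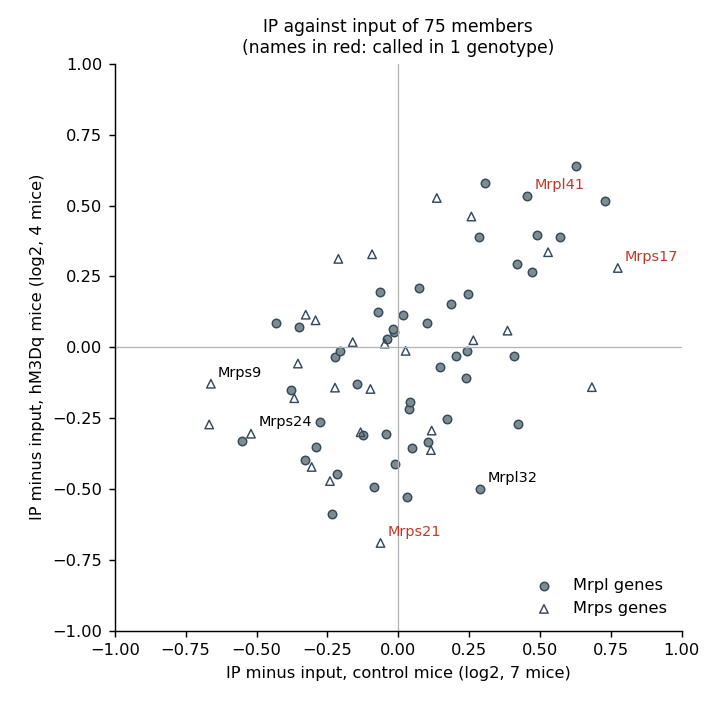
Log2 difference between IP and input of the 75 members tested, in the control mice (x axis, 7 mice) and the hM3Dq mice (y axis, 4 mice), with circles for Mrpl and triangles for Mrps genes. No member passes 1 in either direction on either axis, and the 3 called members (red names) were each called in 1 genotype.

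In the hM3Dq mice the members again lay close to their input, with 2 calls. Mrpl41 rose and Mrps21 fell, 2 of 75 members, where 10.3% of 12987 genes were called (5.41% higher and 4.9% lower). An unadjusted p under 0.05 was reached by 17 members (22.7%), against 26.1% of all genes. The median over members was -0.03, beside 0.03 over all genes, and 67 of 75 lay within 0.5 of 0. With every library scaled to the same sum, the median over members was 0.12 and that over all genes 0.17, and 5 members rose and 0 fell.

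Mrpl41, a large subunit protein specific to mitochondria, had inputs of 50.2, 44.4, 52.2 and 54.3 FPKM in hM3Dq mice 1, 3, 4 and 5 and IPs of 62.3, 68.3, 82.5 and 80.6. All 4 IPs lay above all 4 inputs, and the share of all genes with such a separation was not counted. The change was 0.53 (SE 0.13, n = 4 mice, limma adjusted p = 0.0312). In the control mice the lowest, median and highest values were 37.5, 53.4 and 76.2 FPKM in the inputs and 43.8, 73.9 and 92.4 in the IPs. Here the groups overlapped, with IP higher in 5 of 7 mice, and the log2 difference of 0.45 had a limma adjusted p of 0.207.

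Mrps21, the member with the shortest transcript, had inputs of 48.7, 73.7, 75 and 71.1 FPKM in hM3Dq mice 1, 3, 4 and 5 and IPs of 35.6, 54.2, 30.9 and 45.6. The IP was lower in 4 of 4 mice, and the 2 groups overlapped through the input of mouse 1. The change was -0.69 (SE 0.16, n = 4 mice, limma adjusted p = 0.0285). In the control mice the IP was higher in 4 of 7 mice and the log2 difference was -0.06, over inputs of 28.8 to 78.0 FPKM and IPs of 24.9 to 86.1. Both calls were sensitive: leaving out 1 mouse, the Mrps21 adjusted p ran from 0.0574 to 0.0902 and that of Mrpl41 from 0.0468 to 0.112.

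Within a mouse, members lay in both directions, with 17 (hM3Dq mouse 1) to 53 (control mouse 1) of 75 higher in IP. In the hM3Dq mice, more members were lower in every mouse than were higher in every mouse. In the control mice 1 of 75 members had the IP higher in every mouse (1.33%, against 4.59% of all genes) and 3 had it lower (4.00%, against 3.88%). In the hM3Dq mice 8 had it higher in all 4 mice (10.7%, against 18.9%) and 18 had it lower (24.0%, against 14.5%). The 8 included Mrpl55, Mrps22, Mrps31 and Mrps6, and the 18 included Mrpl30, Mrpl32, Mrpl12, a protein of the large subunit's stalk, and Mrps2. Across the 75 members, the log2 differences of the 2 genotypes correlated with a Pearson r of 0.50 (rho 0.45), against 0.69 (rho 0.56) over 12891 genes and 0.76 (rho 0.76) over 76 cytosolic ribosomal proteins. These are descriptions across genes, which are not independent. The sign was the same in both genotypes for 45 of 75 members.

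**Figure D3:**
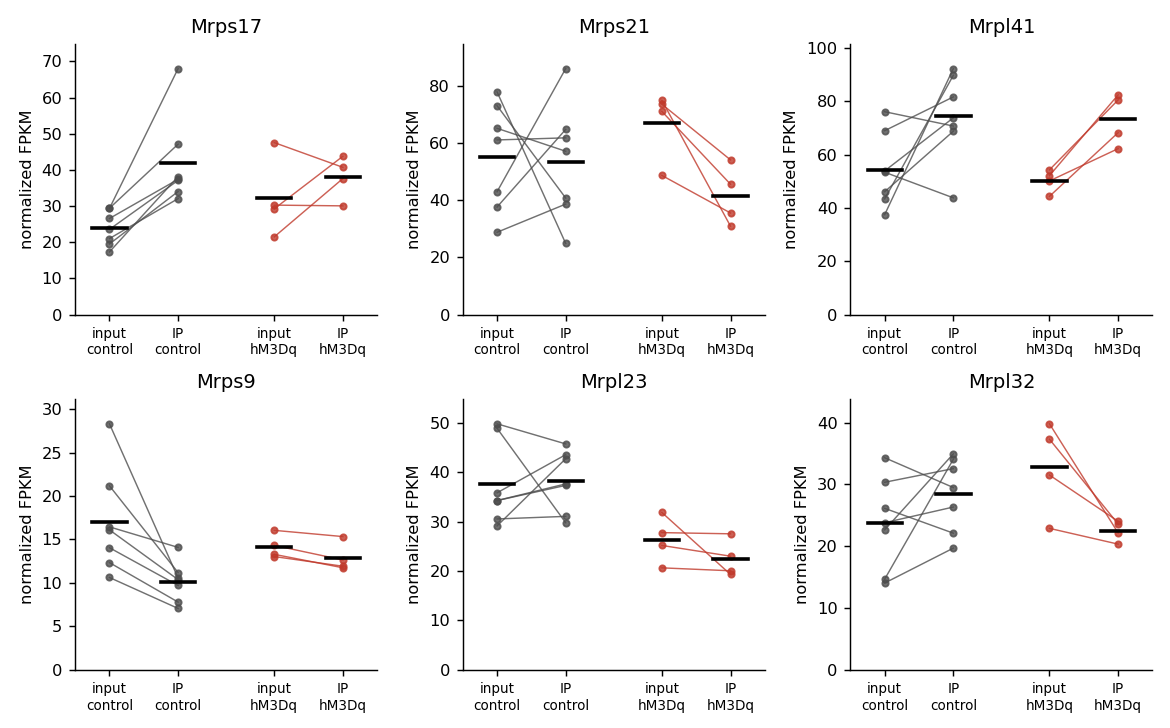
Normalized FPKM of 6 members in each library, with a line joining the input and the IP of a mouse (grey for 7 control mice, red for 4 hM3Dq mice) and a black bar at the group mean. Mrps17 rises in all 7 control mice, Mrpl41 rises and Mrps21 falls in all 4 hM3Dq mice, and the hM3Dq IP values of Mrpl23 lie below all control IP values.

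Messages for the proteins of the cytosolic ribosome were mostly lower in the same IPs. Of 76 cytosolic ribosomal protein messages, 44 fell and 0 rose in the control IPs, with a median of -0.77, and 67 fell and 0 rose in the hM3Dq IPs, with a median of -0.96. The direction of these medians held under every scaling tried. Nuclear subunits of oxidative phosphorylation, whose proteins serve the same organelle, had counts of 0 rising and 1 falling of 70 in the control mice and 2 rising and 1 falling in the hM3Dq mice. Their medians were 0.10 and -0.06. All 9 protein messages of mitochondrial DNA that had a row in the table fell in both genotypes, with medians of -5.14 and -5.62. They are among the transcripts that the mitochondrial ribosome itself translates inside the organelle.

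In single mice, the members' median IP minus input was 0.45, -0.03, -0.04, -0.07, 0.01, -0.22 and -0.14 in control mice 1 to 7, and -0.26, 0.05, 0.03 and -0.06 in hM3Dq mice 1, 3, 4 and 5. Over mice this was -0.01 ± 0.22 (SD, n = 7) and -0.06 ± 0.14 (SD, n = 4). It lay above the median of the cytosolic ribosomal proteins in 10 of 11 mice, all but control mouse 5, where the cytosolic median was 0.08 and elsewhere -0.42 or lower. It lay above that of the oxidative phosphorylation subunits in 3 of 11 mice. Control mouse 1 stood highest for the members, with 2258 FPKM summed over members in its input and 2853 in its IP, and its input had 1895 genes at 0. The part of this input in the result was not tested. Without control mice 1, 5 and 6, 0 of 75 members and 5.48% of all genes were called, the members' median was -0.10 and that of the cytosolic ribosomal proteins -0.88.

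**Figure D4:**
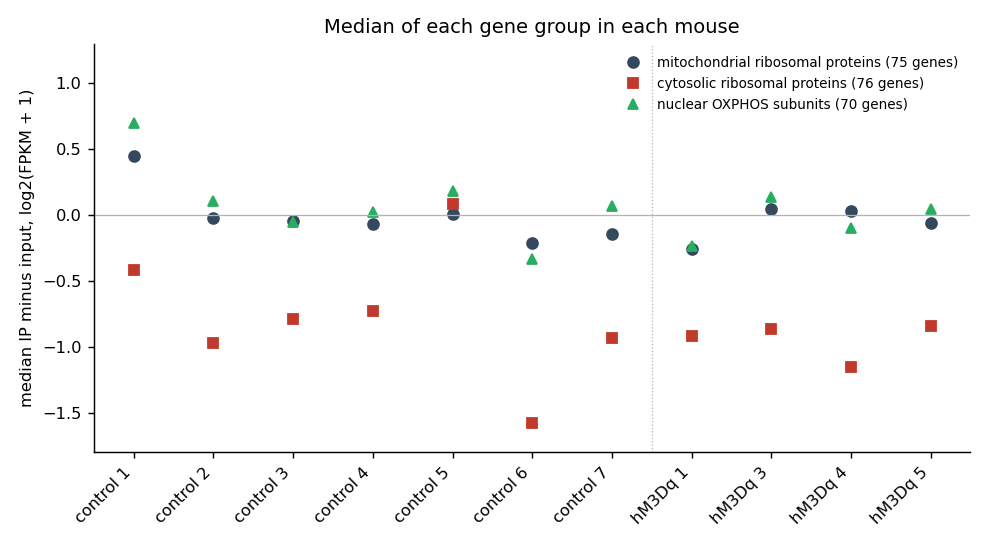
Median IP minus input, log2(FPKM + 1), of 3 gene groups in each of 7 control and 4 hM3Dq mice. The members lie between -0.26 and 0.45, close to the oxidative phosphorylation subunits, and above the cytosolic ribosomal proteins in 10 of 11 mice.

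Cell type markers also moved between IP and input. Of 7 neuronal markers 3 rose in the control and 4 in the hM3Dq IPs, and none fell, with summed levels of 4249 to 5775 FPKM in control inputs and 5439 to 8335 in control IPs. The hM3Dq sums were 4808 to 6554 in inputs and 5964 to 10420 in IPs. Of 7 oligodendrocyte markers 4 fell in each genotype, with sums of 778 to 1575 FPKM in control inputs and 510 to 1083 in control IPs, and 627 to 1653 and 312 to 1145 in the hM3Dq mice. No marker of either list was at 0 in any library. Of 5 erythroid markers 3 rose in the control and 1 in the hM3Dq IPs, with sums of 57.0 to 227 FPKM in control inputs and 67.5 to 508 in control IPs, and hM3Dq sums with medians of 72.8 in inputs and 116 in IPs. Of these, Alas2 was at 0 in some libraries of both fractions. Single markers were called in 5 other lists. In the control mice Agrp (1 of 6 arcuate neuron markers tested, 4 above 0 and 2 below) rose. Ccdc153 (1 of 3 ependymal markers, all 3 below 0) and S100b (1 of 6 astrocyte markers, 5 below 0 and 1 above) fell. In the hM3Dq IPs Ghrh (1 of 6 arcuate neuron markers, 5 above 0 and 1 below) rose. Pdgfra (1 of 2 oligodendrocyte precursor markers, 1 above 0 and 1 below) also rose there. Tyrobp (1 of 6 microglia markers, 4 below 0 and 2 above) fell in the hM3Dq IPs. The part of these markers in the members' values was not tested.

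Other genes of mitochondrial translation were counted by role. The 5 mitochondrial ribosome proteins with other symbols (Dap3, Ptcd3, Aurkaip1, Chchd1 and Gadd45gip1) gave 0 calls in both genotypes, as did 22 genes of mitochondrial ribosome assembly. Of 15 translation factors, Gfm1, the elongation factor G of mitochondria, rose in the control IPs (0.85, limma adjusted p = 0.0276). In the hM3Dq IPs, Mtrf1l, a release factor, rose (0.88, limma adjusted p = 0.0299) and Oxa1l, which inserts new proteins into the inner membrane, fell by 0.85 (limma adjusted p = 0.013).

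Import of these proteins into the organelle depends on translocases of the outer and inner membranes. Of 22 genes of the import machinery 0 rose and 2 fell in the control mice, the translocase subunits Tomm22 (-0.69) and Timm17b (-0.77), with a list median of -0.16. In the hM3Dq mice 0 rose and 4 fell, Tomm5 (-0.83), Tomm6 (-0.89), Tomm22 (-0.57) and Timm8b (-0.92), with a list median of -0.13. Of 13 genes of mitochondrial transcription and biogenesis, Yy1 (0.79) and Ppargc1a (1.05), which encodes the coactivator PGC-1alpha, rose in the hM3Dq IPs and 0 were called in the control mice. The list median was -0.11 in the hM3Dq mice, with 7 of 13 genes below 0, and -0.09 in the control mice.

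The comparison of hM3Dq with control IPs asks which ribosome-bound messages differ with activation of the receptor. Among the members 0 of 75 were called in the IP by limma, where 0.00739% of 13531 genes (1 gene) were called. An unadjusted p under 0.05 was reached by 1 member, against 5.23% of all genes. The median over members was -0.09 beside -0.01 over all genes. Of the members, 24 of 75 values were above 0, against 6633 of 13531 over all genes. Other lists also leaned low, with 22 of 70 oxidative phosphorylation subunits (median -0.11) and 7 of 76 cytosolic ribosomal proteins (median -0.24) above 0. Among genes of mitochondrial ribosome assembly, 14 of 22 were above 0 (median 0.08). Roles had medians of -0.11 in both large subunit groups, -0.11 for small subunit proteins with bacterial counterparts and 0.12 for those specific to mitochondria.

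Mrpl23 had the smallest p among the members. Its protein lies, like its bacterial counterpart, at the rim of the tunnel through which new proteins leave the ribosome. The hM3Dq IPs had 19.3, 27.6, 20.1 and 23.0 FPKM in mice 1, 3, 4 and 5, and the control IPs had 29.8, 37.7 and 45.8 as the lowest, median and highest values. It was the only member whose IP groups did not overlap, where 0.902% of all genes tested did not. The log2 difference was -0.74 (SE 0.17, unadjusted p = 0.000508 and adjusted p = 0.529 by limma), which did not pass. The adjusted p ran from 0.404 to 0.999 over 20 alternatives. Its input was also lower in the hM3Dq mice (31.9, 27.8, 20.7 and 25.2 FPKM, against 29.2, 34.3 and 49.8 in the control mice), with a log2 difference of -0.48 and overlapping groups. The IP minus input difference between genotypes was -0.26 (SE 0.25).

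The next members by p were Mrps15 (-0.33) and Mrpl52 (-0.54), each with a limma adjusted p of 0.922 in the IP. For Mrps15, whose bacterial counterpart also binds small subunit RNA early, the hM3Dq IPs were 34.3, 36.0, 40.9 and 37.8 FPKM and the control IPs had 38.5, 43.7 and 74.5 as the lowest, median and highest values, so that the groups overlapped through hM3Dq mouse 4. For Mrpl52, a large subunit protein specific to mitochondria, the hM3Dq IPs lay between 41.0 and 45.2 FPKM and the control IPs had 38.8, 62.3 and 161 as the lowest, median and highest values. The hM3Dq values thus lay inside the control range, whose top was control mouse 5.

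In the inputs 0 of 75 members were called, as were 0.0% of 13512 genes by limma. An unadjusted p under 0.05 was reached by 3 members, against 4.54% of all genes, and the median over members was -0.04. Mrps18c, 1 of 3 mammalian counterparts of a single bacterial protein, had the smallest p, with hM3Dq inputs of 52.0, 39.3, 44.2 and 50.9 FPKM and control inputs of 43.9, 73.5 and 135 as the lowest, median and highest values. The groups overlapped, and the log2 difference of -0.73 (SE 0.23) had a limma adjusted p of 1. Mrpl23 and Mrps15 (-0.52) followed. The input groups overlapped for all 75 members tested, where 0.555% of all genes did not overlap.

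The difference between IP and input was also compared between genotypes per mouse, which is the interaction of pulldown and genotype. By limma, 0 of 75 members and 0.0% of 14582 genes were called. An unadjusted p under 0.05 was reached by 2 members, against 3.07% of all genes, and the median over members was -0.06. This test also covers Mrps17, Mrpl41 and Mrps21, each called in 1 genotype. Their differences between genotypes were -0.49 (SE 0.24), 0.08 (SE 0.27) and -0.63 (SE 0.40), each with a limma adjusted p of 0.999.

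Mrpl32, a large subunit protein that is known in yeast and mouse to be matured by the m-AAA protease of the inner membrane, had the smallest p of the members in this comparison. Its hM3Dq inputs were 37.3, 22.9, 39.8 and 31.5 FPKM and its IPs 23.6, 20.3, 22.2 and 24.0 in mice 1, 3, 4 and 5. In the control mice the lowest, median and highest values were 14.04, 23.8 and 34.3 FPKM in the inputs and 19.7, 29.5 and 35.0 in the IPs. The IP was lower in 4 of 4 hM3Dq mice and higher in 5 of 7 control mice, and the difference was -0.79 (SE 0.28, unadjusted p = 0.0126 and adjusted p = 0.999 by limma). Mrpl36, whose bacterial counterpart is among the smallest ribosomal proteins, had hM3Dq inputs of 27.4, 32.3, 30.2 and 26.0 FPKM and IPs of 23.0, 26.1, 27.1 and 19.6. Its control values had 11.02, 25.9 and 32.6 FPKM as the lowest, median and highest inputs and 22.7, 30.3 and 35.1 as those of the IPs. The arrangement was the same, with the IP lower in 4 of 4 hM3Dq mice, higher in 5 of 7 control mice and a difference of -0.69 (SE 0.32, adjusted p = 0.999 by limma).

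The authors' deposited table compares IP over input ratios between genotypes with an unadjusted p-value and marks 2 of 76 members as significant, or 2.63%, beside 2.82% of all 17440 genes. In the authors' deposited table these are Mrps9, with a log2 fold change of 0.54 and a p of 0.00193, and Mrpl32, with a log2 fold change of -0.88 and a p of 0.0225. For Mrps9 the IP was below the input in every mouse, so its positive value is a smaller fall in the hM3Dq mice. In the limma test of the per-mouse difference, Mrpl32 also had an unadjusted p under 0.05, whereas 0 of 27 Mrps genes did.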

How the data were processed

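The data were 22 RNA-seq libraries of 11 mice, with 1 IP and 1 input library per mouse. The authors deposited a normalized FPKM per gene and library, a ratio of IP over input per mouse, a p-value and a log2 fold change. Per the submitters' processing notes, HISAT2 2.1.0, StringTie 1.3.4d and build GRCm38.p6 were used; the normalization of the FPKM, the library kit and any batch are not given in the sources used here. The deposited ratio equals the IP over the input FPKM within 0.1%, and the log2 fold change (treated as a score in the unit check, since some genes exceed 100 in size) and the p-value deposited by the authors are printed only where named.

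Values were analysed as log2(FPKM + 1), so differences of low genes are understated. Each comparison took all genes of the table that reached 1 FPKM in 4 or more of its libraries and tested them with limma 3.58.1 (lmFit and eBayes with trend, two-sided) in R 4.3.3, with calls at a Benjamini-Hochberg adjusted p-value under 0.05. IP and input were blocked by mouse; genotypes were not paired, because equal numbers name different animals. Whole-read counts could not be taken from the FPKM, so no count test was run. The scripts were tested on simulated data. Positions, lengths and overlaps came from GENCODE release M21 (GRCm38), and tables and figures from Python 3.11.15, pandas 2.3.3 and matplotlib 3.10.9.

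The members, role groups, pathway lists and alternatives were chosen with earlier results of these data known. By rule, values per mouse were given for called members of each IP against input comparison with a mean FPKM of at least 5, for called members or the 3 smallest p between genotypes, and for the 3 highest and 3 lowest levels; Mrps9 and the further members not called were added after their values were seen.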

Additional observations from a re-analysis of the deposited data

Results flagged for a closer look

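A value was singled out where its gap to the nearest sample of its group exceeded Dixon's 95% limit, which chance passes in about 1 in 20 groups. Of 62 groups of the members named by rule and of their median, 10 (16.1%) passed.

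In the IP of control mouse 5, Mrpl41 was lowest at 43.8 FPKM, and Mrpl52 (161 FPKM) and Mrps15 (74.5 FPKM) were highest. Control mouse 1 had the lowest control input of Mrpl30, at 103 FPKM, and the highest median IP minus input over the members, at 0.45. In the hM3Dq mice, Mrps18b was highest in the IP of mouse 5 at 11.2 FPKM and Mrps18c lowest in the IP of mouse 3 at 35.5 FPKM. Mrps21 had its lowest hM3Dq input in mouse 1, at 48.7 FPKM. Mrps23 was highest in the input of control mouse 7 at 1.50 FPKM and in that of hM3Dq mouse 3 at 1.85 FPKM. The causes were not tested.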

How the results depend on the processing

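No member named by rule changed direction under the alternatives tried (another pseudocount, no filter or an FPKM of 5, 3 scalings, no trend, no replicate block, 1 fit of all libraries, each mouse left out, and without control mice 1, 5 and 6). The members' median, close to 0 throughout, took the other sign in 7 of 17 alternatives for the control IP against input (up to 0.16), 2 of 13 for the hM3Dq (up to 0.12), 5 of 20 for the inputs (up to 0.05), 2 of 20 for the difference per mouse (up to 0.04) and 0 of 20 for the IPs between genotypes. In the 3 comparisons between genotypes, 0 members were called in the main fit and in each of 20 alternatives. Members called in the control IP against input numbered 1 and became 2 with no replicate block (Mrps17 and Mrps24), 3 in 1 fit of all libraries and 0 without control mice 1, 5 and 6. Leaving out 1 mouse gave 0 (without mouse 2) to 2 (without mouse 1). In the hM3Dq mice the 2 members called became 0 with no filter, no trend, no replicate block or 1 fit of all libraries, and 5 with equal sums. Leaving out 1 mouse gave 0 (without mouse 4 or 5) to 1. Mrps21 kept its call in 4 of 13 alternatives and Mrpl41 in 6 of 13. The pairing of IP and input by mouse comes from the labels.

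With equal sums the median over all genes moved to 0.17 in both genotypes and that over members to 0.16 (control) and 0.12 (hM3Dq). The share of calls that were higher went from 46.0% to 74.4% (control) and from 52.5% to 74.7% (hM3Dq). Over all genes, called counts under the other settings ran from 330 to 1191 in the control mice and 502 to 1993 in the hM3Dq mice. The input median between genotypes was -0.0886 (without hM3Dq mouse 5) to 0.0468 with 1 mouse left out, the highest without hM3Dq mouse 3. Apart from settings that drop mice or genes, the cause was not tested. Read depth is unknown, which limits what can be said of low members such as Mrps23.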
